A study of Mus musculus with 20 samples.

Results

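Unannotated 3′ splice sites far from annotated ones were studied in RNA-seq of mouse bone marrow as 3990 junctions that joined an annotated 5′ splice site (the start of an intron) to an unannotated 3′ splice site (its end). A junction was taken when it had at least 100 reads summed over the 20 mice and when no fully annotated junction of the same 5′ splice site ended within 50 bp of it. These were 3990 of 554616 junctions in the deposited table, and of 6834 junctions of this class with 100 reads (the other 2844 lay within 50 bp of an annotated 3′ splice site). The junctions were thus chosen by reads summed over all groups, a sum that 1 group can supply alone: 1 group gave over 50% of the reads in 513 of them and over 90% in 58. Read sums are given as description only. The 3990 junctions ended at 3833 distinct 3′ splice sites, left 3381 distinct 5′ splice sites and lay in 2212 genes. The quantity compared was the share of reads, meaning the reads of the junction as a percentage of all junction reads that leave the same 5′ splice site in one mouse.

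The 4 groups of 5 mice were compared as follows. All mice were recipients transplanted with bone marrow of doxycycline-inducible transgenic donors that carried rtTA, the doxycycline-controlled activator, together with either a U2AF1(WT) or a U2AF1(S34F) transgene. Engraftment lasted over 6 weeks, after which all groups received chow with 625 ppm doxycycline for 7 days. During the last 5 of these days sudemycin D6 or vehicle was infused intravenously, giving the groups called WT vehicle, WT sudemycin, S34F vehicle and S34F sudemycin. As limits of the model, the transgene acted beside the endogenous U2af1 gene, donor marrow was pooled before transplantation, and irradiated recipients can keep some cells of their own. The spread between mice, which all p-values measure, therefore did not cover the spread between donors. RNA of bulk bone marrow was depleted of ribosomal RNA, so that a smaller number of cells of a type and less RNA per cell could not be told apart.

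As background, the 3′ end of an intron is read by U2AF, whose large subunit binds the pyrimidine-rich tract and whose small subunit, U2AF1, contacts the AG dinucleotide at the very end. The S34F substitution, recurrent in myelodysplastic syndromes, lies in a zinc finger of U2AF1 and is known to change which base is preferred just before the AG. Sudemycin D6 binds SF3B1, the part of the U2 snRNP that holds the branch point upstream of the tract, and changes the choice among competing 3′ splice sites. A 3′ splice site inside an intron can start an exon that the annotation lacks, and such an exon often brings a premature stop codon and so exposes the mRNA to nonsense-mediated decay.

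Depth was 34384214 to 64813149 junction reads per mouse. The check of the targeted gene gave U2af1 at 36.1 ± 1.39 CPM (reads of the gene scaled to the reads of the mouse, mean ± SD, n = 5) in WT vehicle and 51.1 ± 2.98 in S34F vehicle mice, which counts gene reads only and does not separate transgene from endogenous RNA. Markers of 8 bone marrow cell types were detected, none of the measured ones at 0 in every mouse. Summed neutrophil markers ranged from 68689 to 75137 CPM in WT vehicle and from 87141 to 146066 CPM in S34F vehicle mice, and 6 of 12 were called higher in the latter. Xist averaged 1315 CPM in WT vehicle and 0.0703 CPM in S34F vehicle mice, and Ddx3y 0 and 64.9 CPM, so that the transgene, the sex of the marrow and any other difference between the donor lines cannot be told apart in the genotype comparisons. Monocyte and macrophage markers were called lower for 4 and higher for 1 of 9 in S34F vehicle mice. Between the genotypes under sudemycin D6 these were lower for 1 and higher for 3 of 9 in S34F mice. In that comparison 4 of 12 neutrophil markers were higher, and 4 of 9 B cell, 4 of 9 erythroid and 3 of 6 T and NK cell markers lower. With sudemycin D6, stem and progenitor markers were lower for 3 of 5 in WT (summed level 111.6 to 161 CPM with vehicle and 64.5 to 136 with the drug) and 4 of 5 in S34F mice, and 2 of 9 B cell markers were lower in each genotype. In S34F sudemycin against WT vehicle mice 9 of 9 B cell markers were lower (34.9 to 53.6 against 43.9 to 141 CPM summed) and 6 of 12 neutrophil markers higher. The part of cell composition in the results below was not tested.

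The sequences at 12 of these 3′ splice sites are shown because sites are grouped below by the base before the AG. Each is read 5′ to 3′ from the mm9 genome (NCBI build 37), runs from the intron into the first bases of the exon, and has the last 3 bases of the intron in capitals. The first of these capitals is the base before the AG. The first 3 sites have A there and rose in S34F mice, and the next 3 have C and rose in S34F mice. The next 3 have T and were lower in S34F mice, the Rbm25 site being called under sudemycin D6 but not under vehicle. The last 3 have T and rose with sudemycin D6. These are examples, and other called sites with the same base moved the other way. Of far sites with T called for the drug, 7 rose and 7 fell in WT mice, and 5 and 9 in S34F mice.
Aoah (chr13:21088948-21088997, plus strand): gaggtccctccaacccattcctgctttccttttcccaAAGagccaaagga
Itgb2l (chr16:96649020-96649069, minus strand): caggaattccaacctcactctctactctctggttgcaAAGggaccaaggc
Gak (chr5:109006259-109006308, minus strand): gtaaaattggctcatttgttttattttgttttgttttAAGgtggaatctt
Etv6 (chr6:134065198-134065247, plus strand): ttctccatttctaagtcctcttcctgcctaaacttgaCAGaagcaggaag
Mdm4 (chr1:134893403-134893452, minus strand): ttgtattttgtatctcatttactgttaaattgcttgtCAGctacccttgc
Ncf4 (chr15:78092476-78092525, plus strand): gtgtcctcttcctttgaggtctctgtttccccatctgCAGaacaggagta
Dennd2d (chr3:106296092-106296141, plus strand): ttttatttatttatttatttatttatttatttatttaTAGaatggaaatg
Srrm2 (chr17:23948744-23948793, plus strand): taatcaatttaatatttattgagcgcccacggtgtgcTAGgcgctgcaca
Rbm25, downstream site (chr12:85002117-85002166, plus strand): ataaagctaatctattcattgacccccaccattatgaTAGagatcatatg
Nin (chr12:71116759-71116808, minus strand): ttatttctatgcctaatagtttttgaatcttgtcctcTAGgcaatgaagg
Gmeb2 (chr2:181021789-181021838, minus strand): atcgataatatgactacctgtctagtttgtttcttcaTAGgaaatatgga
Prkcd (chr14:31413386-31413435, minus strand): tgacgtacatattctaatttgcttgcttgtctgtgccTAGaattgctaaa

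Exons inferred to begin at such a site and end at an unannotated 5′ splice site are shown for 4 genes, in lower case throughout. The shares below measure only the junction that enters at the 3′ splice site. These exons, like the others given below for far sites, were not read from end to end.
Etv6 exon (chr6:134065238-134065369, plus strand): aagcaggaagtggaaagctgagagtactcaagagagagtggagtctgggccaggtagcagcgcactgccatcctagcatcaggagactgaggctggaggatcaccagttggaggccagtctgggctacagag
Sf3b1 exon (chr1:55072973-55073026, minus strand): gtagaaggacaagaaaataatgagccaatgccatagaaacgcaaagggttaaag
Smg1 exon (chr7:125361234-125361291, minus strand): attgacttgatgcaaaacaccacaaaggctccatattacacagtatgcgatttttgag
Nin exon (chr12:71116711-71116768, minus strand): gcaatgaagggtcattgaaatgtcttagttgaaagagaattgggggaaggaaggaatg
They are 132, 54, 58 and 58 nt long. In the reading frame of the annotated upstream exon, those of Sf3b1, Smg1 and Nin hold a stop codon, as does that of Etv6 when it is joined to the coding exon upstream of the farther of its 2 5′ splice sites.

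Most of the unannotated far 3′ splice sites lay inside introns. By the GENCODE M1 annotation of the same build, 2435 of 3990 were in an intron of the gene of their 5′ splice site, 946 within a coding exon, 195 in an untranslated exon part, 157 in a noncoding exon, 62 in an intron of another gene and the remaining 129 and 66 outside genes of their strand, without and with a gene on the other strand. The nearest annotated 3′ splice site used by the same 5′ splice site was a median of 995 bp away (quartiles 145 and 4906 bp), and 1967 junctions lay over 1000 bp from it. Relative to the most used annotated 3′ splice site, 2563 were upstream, which shortens the intron, and 1380 downstream. For 47 junctions no annotated junction of the same 5′ splice site had reads. All 3990 introns ended in AG, and 3956 began with GT and 34 with GC. In 559 of them (14%) the deposited letters of the 3′ end were in lower case or N, against 0.914% of the unannotated sites near annotated ones and 1.21% of annotated sites, and what the submitters mark by this was not stated.

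Their read support was mostly low. The median was 214 reads over 20 mice and the maximum 33767, 1860 had under 200 reads and 362 over 1000. Reads were found in all 20 mice for 1202 junctions and in 10 or fewer mice for 291. In 111 junctions a single mouse gave over 50% of the reads, and only 1 of these was called in any comparison below. Over all mice pooled the median share of reads was 2.8%, 3049 junctions took over 1%, 1315 over 5% and 135 over 50% of the reads at their 5′ splice site. Just inside the limit of reads were a site of Myb (chr10:20866116-20868138) and one of Syne1 with 100 reads each, and just outside were one of Gp49a and Lilrb4 and one of Ccdc138 with 99. Just inside the limit of distance were sites of Arhgap9 and Arid3a at 51 bp, and just outside were sites of Stxbp5 and Smarcd2 at 50 bp.

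**Figure D1:**
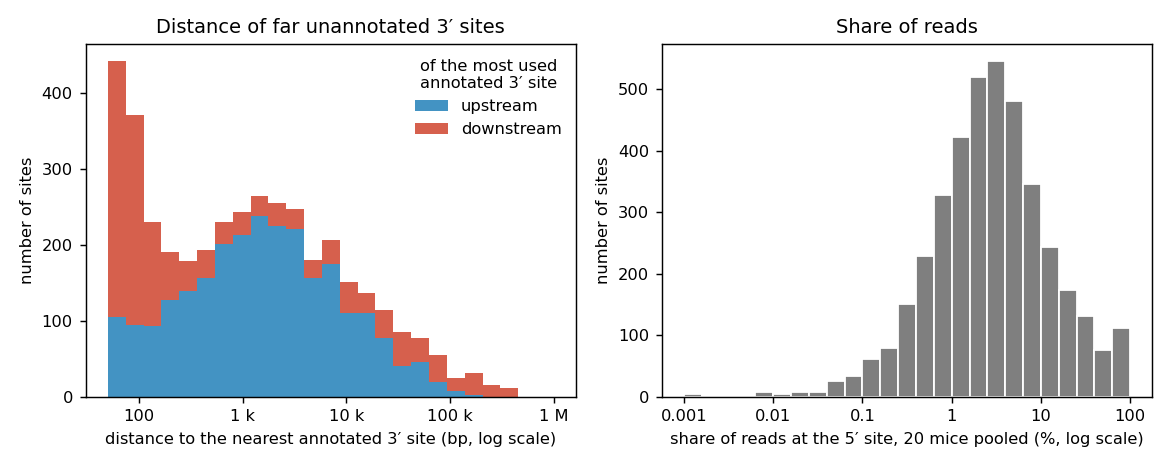
Left, number of unannotated far 3′ splice sites (vertical axis) by distance to the nearest annotated 3′ splice site of the same 5′ splice site (horizontal axis, bp, log scale), stacked by position upstream or downstream of the most used annotated one. Right, number of sites (vertical axis) by share of reads at the 5′ splice site with the 20 mice pooled (horizontal axis, percent, log scale). The medians are 995 bp and 2.80%.

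As the end of the exon that such a site may open, the most read 5′ splice site within 500 bp downstream was taken, with at least 100 reads. Reads entering at the 3′ splice site were not linked to those leaving at the 5′ splice site, so each exon is inferred. For 1372 sites this 5′ splice site was unannotated, so that both ends of the inferred exon lacked annotation. For 1512 it was annotated, which would make another version of a known exon or a known exon end with a new start. For 1106 none was found. Of the 1088 wholly unannotated exons with a single reading frame, 801 (73.6%) held an in-frame stop codon, against 77.8% in the other frames of the same exons, and 125 (11.5%) had no stop and a length divisible by 3. Exons that ended at an annotated 5′ splice site held an in-frame stop in 873 of 1312 (66.5%). Frames follow the annotated upstream coding exon and say nothing of whether the RNA was degraded.

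The base before the AG was C at 64.5%, T at 22.7%, A at 11.2% and G at 1.57% of the 3833 distinct far 3′ splice sites. Annotated sites had C at 62.7%, T at 31.2%, A at 5.85% and G at 0.255%, and unannotated sites within 50 bp of annotated ones had A at 19.1% and T at 14.9%. The far sites thus held more A and less T than annotated sites and more T and less A than near ones. Within them, T stood before the AG at 9.62% of sites in coding exons and 27.6% of sites in introns of the same gene. The pyrimidine share of the 16 bases 5 to 20 upstream of the exon was 71.4% on average at far, 66.1% at near and 76.4% at annotated sites. These are descriptions of sites that were not independent, since neighbouring sites can share bases.

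Summed over all unannotated far 3′ splice sites, the reads were 1.53% ± 0.0716 of all reads at their 5′ splice sites in WT vehicle (mean ± SD, n = 5), 1.44% ± 0.145 in WT sudemycin, 1.22% ± 0.0636 in S34F vehicle and 1.15% ± 0.0645 in S34F sudemycin mice. The ranges were 1.41 to 1.6% in WT vehicle and 1.11 to 1.28% in S34F vehicle mice, which did not overlap. A lower mean in S34F mice was not particular to far sites. The sums of unannotated sites within 50 bp of annotated ones were 1.22% ± 0.0988, 1.17% ± 0.0545, 1.0% ± 0.068 and 1.06% ± 0.127 in the same order, with overlap. As a percentage of all junction reads the sums of the far sites were 0.211% ± 0.0144, 0.202% ± 0.00424, 0.196% ± 0.00491 and 0.181% ± 0.00754 in the same order. On this scale the vehicle genotypes overlapped, at 0.185 to 0.219% in WT and 0.192 to 0.203% in S34F mice. The first sum weights each 5′ splice site by its reads and moves with the expression of the genes, so no test was made of it.

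To ask whether U2AF1(S34F) changed the use of these sites, S34F vehicle mice were compared with WT vehicle mice. Of 3923 sites tested, 212 were called, 106 with a higher and 106 with a lower share of reads in S34F mice. A call needed a Benjamini-Hochberg adjusted p under 10% over all 36818 junctions tested (edgeR's quasi-likelihood test of the junction reads against the other reads at the 5′ splice site, n = 5 mice per group) and a difference of mean shares over 1 percentage point. The called share was 5.4% of the sites against 4.84% of all junctions tested (2.46% higher and 2.38% lower), so that far sites were called about as often as junctions in general. The median size of the called differences was 4.74 percentage points, and in 157 of 212 the WT and S34F mice did not overlap, against 259 of all far sites tested and 5.11% of all junctions. The limma test of the log ratio, run as an alternative, called 108 (1.86% of all junctions), of which 94 were shared. With a negative binomial dispersion estimated from the counts in place of 0, edgeR called 39 (0.598% of all junctions). On simulated counts the reported test gave a larger share of false calls than its nominal 10%, so the adjusted p-values and counts below may be too favourable. Of 43 calls under vehicle at sites named in the text or by the same rules, 15 were kept with the estimated dispersion, those of Ccnl2, Dennd2d, 1110005A03Rik, Aoah (the one with A before the AG), Trim30b (both sites), Ncf4, Itgb2l, Xdh, Birc6, Mnda, Alpk1 and Gak, the nearer junction of Etv6 and 1 Prex1 site, and the other 28 were lost. Without S34F vehicle mouse 11 the reported test called 119, and without S34F vehicle mouse 7 it called 133.

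The direction differed with the base before the AG. Of 442 tested sites with A there, 34 rose and 6 fell in S34F vehicle mice (median log2 odds ratio of S34F over WT 0.57). At 891 sites with T, 2 rose and 56 fell (median -0.58). With C, 69 rose and 41 fell among 2528 (median 0.22), and with G 1 rose and 3 fell among 62. The other tested junctions with an annotated 5′ splice site, annotated and near unannotated sites together, split in the same order, with 92 rising and 20 falling with A (median 0.21), 80 and 403 with T (median -0.29), and 390 and 182 with C (median 0.10). Over all tested far sites, called or not, the median of the log2 odds ratio was 0.07.

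The same order stood in the mean share of reads per mouse. Over 884 far sites with T before the AG, those with reads at their 5′ splice site in every mouse, the mean share was 8.46% ± 0.229 in WT vehicle (mean ± SD, n = 5), 8.36% ± 0.381 in WT sudemycin, 6.75% ± 0.476 in S34F vehicle and 6.64% ± 0.247 in S34F sudemycin mice. Each of the 10 WT mice lay above each of the 10 S34F mice. With A (440 sites) the means were 5.04% ± 0.227, 5.17% ± 0.268, 6.84% ± 0.363 and 6.54% ± 0.328 in the same order of groups, and each S34F mouse lay above each WT mouse. Sites with C (2514 sites) gave 6.77% ± 0.171, 6.76% ± 0.247, 7.45% ± 0.118 and 7.14% ± 0.0841. Within a genotype, vehicle and sudemycin D6 means differed by less than the distance between genotypes for A and T.

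**Figure D2:**
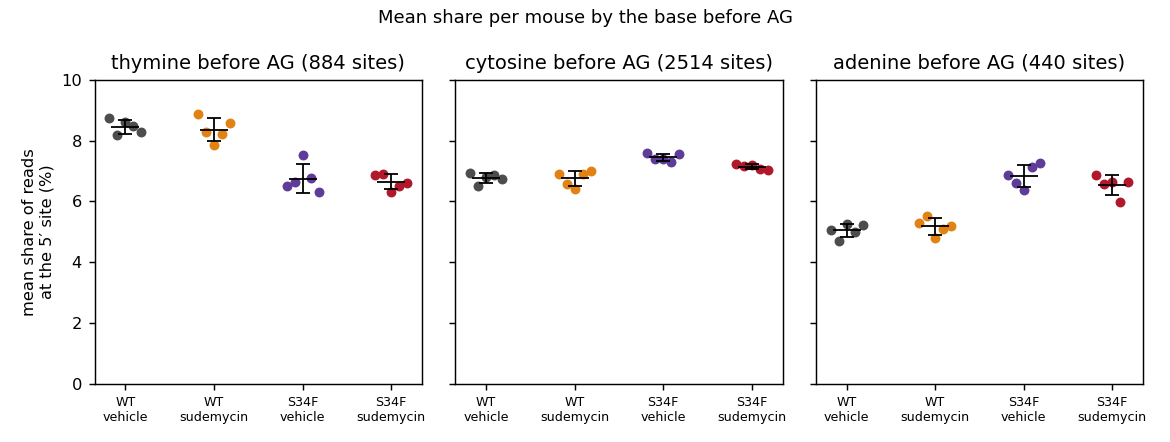
Mean share of reads of unannotated far 3′ splice sites (vertical axis, percent) in each mouse, by the base before the AG (panels) and group (horizontal axis). Points are mice and bars are the mean ± SD of 5 mice. With thymine the 10 WT mice lie above the 10 S34F mice, and with adenine below them.

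The direction varied with the place of the site as well. Sites within coding exons rose in 33 and fell in 7 of 935 tested, while sites in introns of the same gene rose in 54 and fell in 86 of 2397. The sites in coding exons held fewer T before the AG, as given above, and the 2 features were not separated. Called were 4.28% of sites in coding exons and 5.84% of those in introns of the same gene, beside 4.84% of all junctions. Sites of inferred exons without annotation at either end were called in 44 cases higher and 52 lower of 1355, or 7.08%. Between the genotypes under sudemycin D6 these gave 25 higher and 36 lower, or 4.5%, beside 4.36% of all junctions, so the raised share did not recur. There sites in coding exons rose in 33 and fell in 9, and those in introns of the same gene in 37 and 64.

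Genes of splicing regulators were among those called. Rbm25, a regulator that joins the early spliceosome, had a pair of far sites whose mean shares differed between genotypes in opposite directions. Each was called between genotypes under 1 treatment only. At the upstream one, with C before the AG (chr12:84973368-84976351, an intronic site opening an exon of 80 nt), the shares of reads were 9.31, 2.75, 5.29, 7.07 and 8.45% in WT vehicle and 8.12, 4.17, 1.41, 3.54 and 8.77% in WT sudemycin mice. In S34F mice they were 17.4, 19.4, 11.9, 16.5 and 12.9% with vehicle and 6.05, 12.9, 19.7, 14.5 and 11.1% with sudemycin D6. The S34F vehicle mice were all above the WT vehicle mice, a difference of 9.04 percentage points (log2 odds ratio 1.39 ± 0.37 (SE), adjusted p = 0.0481). Under sudemycin D6 the S34F mice were higher by 7.63 percentage points, with overlap, and the site was not called. At the downstream one, with T before the AG (chr12:85001629-85002156, opening an exon of 62 nt), the shares were 25.7, 14.8, 48.3, 28.5 and 25.8% in WT vehicle and 14, 45.3, 26.4, 30.8 and 15.6% in WT sudemycin mice. S34F mice had 11.5, 21.2, 12.5, 10.2 and 14.4% with vehicle and 13, 13.1, 11, 16.3 and 6.38% with sudemycin D6. There the groups overlapped and the difference under vehicle missed the threshold (adjusted p = 0.116), while under sudemycin D6 the S34F mice were lower by 14.5 percentage points (adjusted p = 0.0792).

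Srrm2, a serine and arginine rich scaffold of nuclear speckles, had an intronic site with T before the AG (chr17:23948699-23948783). Its shares of reads were 25, 19.3, 19.3, 20 and 16.9% in WT vehicle and 16.6, 14.6, 13.8, 14.6 and 16.5% in WT sudemycin mice. Those of S34F mice were 7.74, 10.3, 15, 12.8 and 10.3% with vehicle and 8, 11.8, 6.68, 9.66 and 3.85% with the drug. In both treatments all S34F mice were below all WT mice. The differences were 8.89 percentage points under vehicle (log2 odds ratio -0.98 ± 0.22 (SE), adjusted p = 0.0189) and 7.25 under sudemycin D6 (adjusted p = 0.0289), both lower in S34F mice. Hnrnpc, an RNA-binding protein that competes with U2AF for uridine tracts, had a site with C before the AG (chr14:52718220-52723563) at 19.5% ± 3.65 in WT vehicle, 15% ± 2.29 in WT sudemycin, 12.6% ± 1.83 in S34F vehicle and 9.02% ± 1.5 in S34F sudemycin mice (mean ± SD, n = 5), lower in S34F mice under vehicle (adjusted p = 0.0374) and under sudemycin D6 (0.0178). A second far site of the same 5′ splice site (chr14:52717716-52723563) had 49.1% ± 3.13 in WT vehicle, 37% ± 6.73 in WT sudemycin, 53.6% ± 3.75 in S34F vehicle and 48.7% ± 4.43 in S34F sudemycin mice, higher in S34F than in WT mice under sudemycin D6 (adjusted p = 0.054) but not called under vehicle (0.372), and lower with the drug in WT mice (0.0642). Hnrnpa2b1, another nuclear RNA-binding protein, had a site with T before the AG in its untranslated exon part (chr6:51412055-51413409) that fell in S34F mice, at 7.45% ± 1.37 in WT vehicle, 5.58% ± 1.74 in WT sudemycin, 4.93% ± 0.685 in S34F vehicle and 2.9% ± 0.716 in S34F sudemycin mice (adjusted p = 0.0803 under vehicle and 0.0373 under sudemycin D6). The Hnrnpc pair shares 1 5′ splice site, so its shares were not independent of each other.

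Smaller shares changed in other members of the splicing machinery. Snrnp70, the U1 snRNP protein, had a site with T before the AG that fell from 7.02% ± 1.56 in WT vehicle to 3.48% ± 0.618 in S34F vehicle mice (adjusted p = 0.0591), and Prpf38b, of the precatalytic spliceosome, one with T that fell from 4.63% ± 0.63 to 0.866% ± 1.31 (0.074). Mbnl2, a regulator of alternative exons, had a site with C that rose from 0.252% ± 0.287 to 2.43% ± 1.14 (0.0589), and Hnrnpl one with T that fell from 2.17% ± 0.564 to 0.658% ± 0.295 (0.0602). In none of these 4 did the vehicle groups overlap. Luc7l2, a U1-associated protein lost in some myeloid neoplasms, had only 141 reads at its site over the 20 mice, with 4 reads in WT vehicle and 48 in S34F vehicle mice. Its shares were 0, 9.68, 0, 0 and 3.12% in WT vehicle and 33.3, 42.9, 25, 24.6 and 37.5% in S34F vehicle mice (adjusted p = 0.0801, and 0.44 under sudemycin D6), a call kept in only 2 of 10 fits that each left out 1 mouse.

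Genes of myeloid neoplasms and the p53 response followed. Etv6, a repressor needed by blood stem cells, had an intronic site with C before the AG, which opened the 132-nt exon shown above and was reached from 2 5′ splice sites. From the nearer (chr6:134016484-134065237) the shares of reads were 7.57, 8.06, 13.4, 9.14 and 4.26% in WT vehicle and 3.83, 4.88, 5.69, 4.25 and 10.8% in WT sudemycin mice. The S34F vehicle and S34F sudemycin mice had 31.5, 17.7, 24, 25.3 and 22.8% and 16.6, 19.4, 25.8, 23.2 and 21.1%. All S34F mice lay above all WT mice, in both treatments, with differences of 15.8 percentage points under vehicle (log2 odds ratio 1.78 ± 0.35 (SE), adjusted p = 0.0057, limma adjusted p = 0.0567) and 15.3 under sudemycin D6 (log2 odds ratio 2.22 ± 0.36 (SE), adjusted p = 0.00147). From the farther (chr6:133986157-134065237) the means were 1.1% ± 0.987 in WT vehicle, 0.687% ± 0.69 in WT sudemycin, 6.4% ± 2.16 in S34F vehicle and 5.59% ± 2.05 in S34F sudemycin mice, again higher in S34F mice under vehicle (adjusted p = 0.0219) and sudemycin D6 (0.0212).

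Mdm4, an inhibitor of p53, had an intronic site with C before the AG (chr1:134893413-134897859), 126 bp upstream of an annotated one, so that the exon is extended. Its shares were 11.1, 9.64, 12.6, 16.4 and 8.89% in WT vehicle and 9.11, 11.4, 7.18, 8.04 and 17.5% in WT sudemycin mice. With S34F the values were 21.5, 15.2, 20.5, 28.8 and 23.3% under vehicle and 17.3, 20.8, 20.8, 18.5 and 16.8% under sudemycin D6. The S34F mice were mostly higher, with overlap, and differed by 10.1 percentage points under vehicle (log2 odds ratio 1.17 ± 0.27 (SE), adjusted p = 0.0203) and 8.17 under sudemycin D6 (adjusted p = 0.0231). By the limma test these had adjusted p = 0.165 and 0.178. Suz12, a subunit of the PRC2 methyltransferase, had a site in a coding exon that reached 2.72% ± 2.42 in WT vehicle, 0.414% ± 0.524 in WT sudemycin, 4.0% ± 0.714 in S34F vehicle and 4.34% ± 1.86 in S34F sudemycin mice, called only under sudemycin D6 (adjusted p = 0.0149), and the difference between treatments was not shown. Asxl1, a chromatin regulator often mutated in these diseases, had a site with T before the AG at 8.55% ± 5.9 in WT vehicle, 5.02% ± 3.24 in WT sudemycin, 2.79% ± 0.695 in S34F vehicle and 2.24% ± 0.562 in S34F sudemycin mice, and neither genotype comparison called it (adjusted p = 0.164 and 0.355). Kdm5c, an X-linked histone demethylase, had a site with A before the AG at 0.337% ± 0.478 in WT vehicle, 0% ± 0 in WT sudemycin, 3.2% ± 0.981 in S34F vehicle and 1.96% ± 1.21 in S34F sudemycin mice, higher in S34F mice in both comparisons (adjusted p = 0.043 and 0.0613). The sex of the marrow, which differed with genotype, cannot be told apart there.

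Other called sites, picked by the rules for named sites after their values were known, lay in genes of varied function. Aoah, a lipase that inactivates bacterial endotoxin, had an intronic site with A before the AG (chr13:21087364-21088987). Its shares of reads were 3.08, 6.34, 9.13, 4.96 and 7.12% in WT vehicle and 12.4, 1.48, 5.04, 10.3 and 13.8% in WT sudemycin mice. In S34F mice they were 31.5, 34.1, 16.9, 37.2 and 27.5% with vehicle and 49.5, 42.9, 37.6, 34.7 and 45.9% with sudemycin D6. All 10 S34F mice were above all 10 WT mice. The share was higher by 23.3 percentage points under vehicle (log2 odds ratio 2.71 ± 0.36 (SE), adjusted p = 0.000108) and by 33.5 under sudemycin D6 (log2 odds ratio 3.10 ± 0.40 (SE), adjusted p = 0.000159). Expression of the whole gene was lower in S34F vehicle than in WT vehicle mice (log2 fold change -0.76 ± 0.11, SE, adjusted p = 0.000307). Dennd2d, a regulator of Rab GTPases, showed the opposite at a site with T before the AG (chr3:106295496-106296131), with shares of 48, 37.2, 51, 50.7 and 49.3% in WT vehicle and 35.7, 39.5, 21.1, 27 and 39.3% in WT sudemycin mice. S34F mice had 21.1, 22.6, 18.8, 18.6 and 8.11% with vehicle and 10.2, 15, 4.49, 10.2 and 6.99% with sudemycin D6. The S34F mice were below the WT mice of the same treatment, by 29.4 percentage points under vehicle (log2 odds ratio -2.06 ± 0.31 (SE), adjusted p = 0.000519) and 23.1 under sudemycin D6 (adjusted p = 0.00708).

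Ncf4, the p40phox subunit of the phagocyte NADPH oxidase, had a site with C before the AG, 110 bp upstream of the annotated one (chr15:78091468-78092515). Its shares were 1.41, 0.839, 1.54, 1.4 and 1.37% in WT vehicle and 0.587, 3.21, 1.95, 0.80 and 1.24% in WT sudemycin mice. Those of S34F mice were 5.49, 5.97, 6.51, 6.39 and 7.41% with vehicle and 5.08, 5.98, 6.13, 6.64 and 6.07% with the drug. All S34F mice exceeded all WT mice, by 5.04 percentage points under vehicle (log2 odds ratio 2.40 ± 0.22 (SE), adjusted p = 5.95e-07) and 4.42 under sudemycin D6 (adjusted p = 0.000659). Itgb2l, a neutrophil integrin-like gene, had a site with A before the AG (chr16:96649030-96649280) at 1.33, 0.477, 1.46, 0.59 and 1.34% in WT vehicle and 1.82, 1.2, 1.27, 2.21 and 2.16% in WT sudemycin mice. The S34F vehicle and S34F sudemycin mice had 3.35, 3.71, 3.89, 5.43 and 3.83% and 5.96, 7.01, 6.88, 4.11 and 6.27%. The 2 genotypes did not overlap within either treatment (adjusted p = 0.00468 and 0.000454). Further sites in Gak, a cyclin G-associated kinase of clathrin uncoating, Rcsd1, an actin capping protein regulator, and Adipor1, an adiponectin receptor, rose in the same way. Gak had 3.51% ± 1.0 in WT vehicle, 3.13% ± 1.85 in WT sudemycin, 11.7% ± 4.12 in S34F vehicle and 11.3% ± 2.48 in S34F sudemycin mice (adjusted p = 0.0144 under vehicle and 0.0143 under sudemycin D6). Rcsd1 had 2.79% ± 0.72 in WT vehicle, 1.75% ± 0.598 in WT sudemycin, 6.5% ± 1.21 in S34F vehicle and 4.46% ± 0.782 in S34F sudemycin mice (adjusted p = 0.0117 and 0.0309), and Adipor1 1.79% ± 0.524 in WT vehicle, 1.63% ± 0.198 in WT sudemycin, 5.62% ± 1.15 in S34F vehicle and 3.85% ± 0.51 in S34F sudemycin mice (0.000236 and 0.00326). Before the AG these 3 have A, A and C.

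Trim30b, a tripartite motif gene of a mouse-specific family, had a pair of sites with 1424 and 1427 reads that shared a 5′ splice site. At the site in its own untranslated exon part (chr7:111510843-111511220) the shares were 12.7, 12.6, 18.2, 12.9 and 11.9% in WT vehicle and 15.8, 25.5, 19.3, 10.2 and 14% in WT sudemycin mice. With S34F the values were 43.6, 42.7, 42.2, 41.8 and 38% under vehicle and 43.3, 43.7, 43.1, 44 and 40.2% under sudemycin D6. All S34F mice were above all WT mice, by 28 percentage points under vehicle (log2 odds ratio 2.22 ± 0.24 (SE), adjusted p = 5.95e-06) and 25.9 under sudemycin D6 (adjusted p = 0.000539). The exon start of the second site (chr7:111473141-111511220) matched that of the first in at least 18 of its first 20 bases and had nearly the same shares in each group (13.9% ± 2.48 in WT vehicle, 17% ± 5.8 in WT sudemycin, 41.8% ± 1.74 in S34F vehicle and 42.6% ± 1.54 in S34F sudemycin mice), so that reads of near-identical copies may be split between them and the level of each is uncertain. Such a match with another far site of the same 5′ splice site was found for 129 of the 3990 sites, and a match with an annotated exon start of the same 5′ splice site for 22. Expression of Trim30b was lower in S34F vehicle mice (log2 fold change -0.77 ± 0.13, SE, adjusted p = 0.00103).

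Some sites had no read in any mouse of 1 genotype. Of the 3990 sites, 11 had reads in at least 6 of the 10 WT mice and in no S34F mouse, and 7 had reads in at least 6 S34F mice and in no WT mouse. The same held for 0.0633% and 0.142% of the 71083 junctions of any class with 100 reads. Such sites met the limit of 100 reads through 1 genotype alone, so these counts are a description. Of the 11, 8 had at least 1000 reads at their 5′ splice site in S34F mice. Xdh, xanthine dehydrogenase, had 264 reads at its site in the WT mice (1.3% of the reads there) and 0 of 8014 in S34F mice, which allows a share of up to 0.0374% (3 reads, counting error only). Prex1, a Rac exchange factor of neutrophils, had 2 such sites, with 4.92% and 2.92% in WT mice and 0 of 5228 reads in S34F mice, which allows up to 0.0574%. Birc6, an inhibitor of apoptosis, had 7.13% in WT and 0 of 3431 reads in S34F mice (up to 0.0874%), and Ccdc75 6.02% and 0 of 1818 (up to 0.165%). A second site of Aoah, with T before the AG, had 2.44% and 0 of 3568 (up to 0.0841%). Of the 7 absent in WT mice, 2 use a 5′ splice site of Eif2s3y, a Y-linked gene, and 1 of the 11 lies in Xist. The one with most reads among the others was in a coding exon of Ppp1ca, a phosphatase catalytic subunit, with 1.14% in S34F mice and 0 of 34549 reads in WT mice. Alpk1, an innate kinase, had reads in 1 S34F mouse. Its shares were 10, 26.4, 37.1, 21.4 and 32.1% in WT vehicle and 16.2, 12, 14, 4.55 and 3.26% in WT sudemycin mice. In S34F mice they were 0, 0, 0, 0 and 0% with vehicle and 0, 0, 0, 0 and 0.758% with sudemycin D6.

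Sites called in both genotype comparisons also stood near each other on 2 chromosomes. On chr13:17811459-21088988, which holds Cdk13, Gpr141 and Aoah, 8 of 16 tested far sites were called in both comparisons, and on chr17:74272266-79237590, which holds Xdh, Birc6 and Ccdc75, 3 of 8. In all, 72 of 3923 tested far sites and 646 of 36818 tested junctions were called in both. The 8 were not separate, since some share a 3′ or a 5′ splice site. These stretches were looked for after the values were seen, as runs of at least 3 genes whose called sites followed each other within 5 Mb, and no test was made of them. Gpr141, an orphan receptor in the first stretch, had 1 far site reached from 3 5′ splice sites, and at the one with the largest share (chr13:19854001-19871323) the shares were 18.3, 25.5, 19.6, 8.88 and 13.7% in WT vehicle and 29.9, 13.1, 23.3, 13.7 and 3.54% in WT sudemycin mice. S34F mice had 5.49, 3.07, 0.536, 0.535 and 4.35% with vehicle and 1.42, 2.34, 4.05, 0.481 and 0% with sudemycin D6. The S34F mice were lower by 14.4 percentage points under vehicle (log2 odds ratio -2.92 ± 0.50 (SE), adjusted p = 0.00179) and 15 under sudemycin D6 (adjusted p = 0.0102). Whether such differences come with the transgene or with other differences between the donor lines cannot be told apart.

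Under sudemycin D6 the genotypes were compared in 10 other mice. Of 3923 sites 167 were called, 84 higher and 83 lower in S34F mice (4.26% against 4.36% of all junctions, 2.20% higher and 2.16% lower). By limma 88 were called (1.64% of all junctions) and with an estimated dispersion 42 (0.682%). Without S34F sudemycin mouse 6, 9, 10 or 12 the count was 99, 92, 104 and 99. With A before the AG 19 of 442 tested sites rose and 3 fell, with T 3 and 43 of 891, and with C 60 and 35 of 2528. The median log2 odds ratios over all tested sites were 0.50, -0.57 and 0.15. The other tested junctions with an annotated 5′ splice site split in the same order, with 74 rising and 17 falling of 2155 with A, 80 and 386 of 7490 with T, and 356 and 176 of 15132 with C. The mice of this comparison are not those of the vehicle comparison, so each can be read in the other. Both compare the same donor lines, and Xist averaged 1129 CPM in WT sudemycin and 0.0742 CPM in S34F sudemycin mice. A difference that came with the sex of the marrow or the donor line would therefore repeat in both. Of the 212 sites called under vehicle, 195 (92%) differed in the same direction under sudemycin D6 and 72 (34%) were called there as well (36.8% of all junctions called under vehicle were), against 68.3% in the same direction among all tested far sites and 92% among all junctions called under vehicle. The median size of their differences was 4.74 percentage points under vehicle and 2.52 under sudemycin D6. Of the 167 called under sudemycin D6, 155 had the same direction under vehicle. The 72 called in both comparisons were 33 higher and 39 lower. Among them T before the AG gave 0 higher and 15 lower, A 9 and 2, C 23 and 20, and G 1 and 2.

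**Figure D3:**
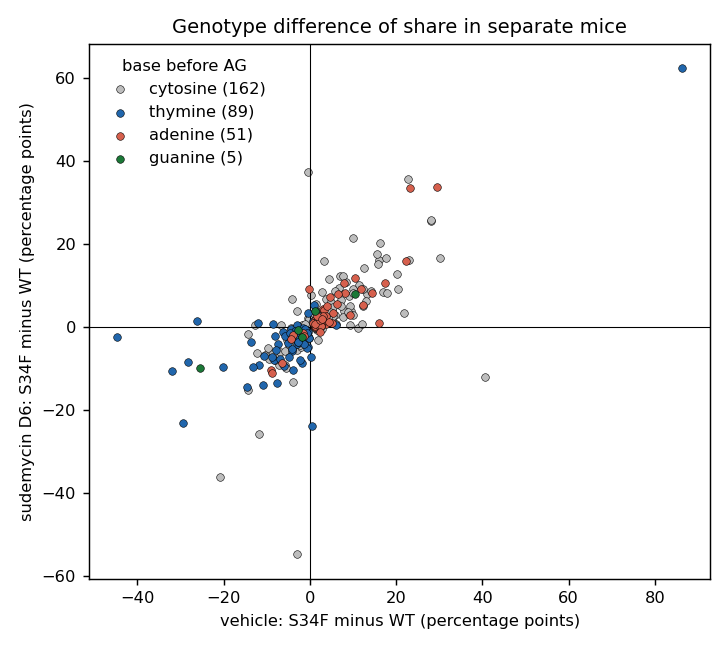
Difference of the mean share of reads, S34F minus WT, under sudemycin D6 (vertical axis, percentage points) against that under vehicle (horizontal axis, percentage points) for the 307 unannotated far 3′ splice sites called in at least 1 of these comparisons, coloured by the base before the AG. The comparisons share no mouse, and 278 of the sites have the same sign in both. Both compare the same donor lines, which differ in the sex of the marrow.

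Among the sites called in both, 1110005A03Rik had a site inside a coding exon (chr11:116709673-116710318), with shares of 18.2, 5.67, 8.7, 6.47 and 7.77% in WT vehicle and 16.7, 2.9, 12.3, 7.1 and 2.82% in WT sudemycin mice. Those of S34F mice were 26.9, 43.9, 35.7, 28.8 and 25.7% with vehicle and 36.9, 52.8, 53.4, 24 and 52.9% with the drug. No S34F mouse overlapped the WT mice of its treatment (adjusted p = 0.0134 under vehicle and 0.000704 under sudemycin D6). Gsk3a, a kinase of glycogen and Wnt signalling, had one with G before the AG, 52 bp inside a coding exon, at 9.32% ± 1.94 in WT vehicle, 6.94% ± 1.61 in WT sudemycin, 19.8% ± 3.71 in S34F vehicle and 15% ± 2.19 in S34F sudemycin mice (adjusted p = 0.0207 and 0.0402). Mnda, an interferon-inducible nuclear gene, went against most other sites with A before the AG, at 9.07% ± 4.04 in WT vehicle, 11.4% ± 6.78 in WT sudemycin, 0.33% ± 0.738 in S34F vehicle and 0.282% ± 0.437 in S34F sudemycin mice (adjusted p = 0.000932 and 0.00247). Fn1, fibronectin, had one of the most read far sites (18126 reads, chr1:71644247-71644947), at 41.1, 37.3, 39.3, 37.2 and 41.7% in WT vehicle and 33.9, 33.3, 39.9, 37.2 and 28.4% in WT sudemycin mice. The S34F vehicle and S34F sudemycin mice had 46.3, 47.3, 49.8, 43.1 and 45.3% and 47.4, 43.5, 49.1, 48.2 and 46.1%. The S34F mice were higher without overlap in each treatment, by 7.04 (log2 odds ratio 0.46 ± 0.10 (SE), adjusted p = 0.014) and 12.3 percentage points (adjusted p = 0.00145). Neither call was kept by limma (adjusted p = 0.464 and 0.214) or with an estimated dispersion. Expression of Fn1 was 1436 ± 193 CPM in WT vehicle and 732 ± 291 CPM in S34F vehicle mice (edgeR adjusted p = 0.0105). BC018473 had 2.58% ± 1.25 in WT vehicle, 3.42% ± 0.957 in WT sudemycin, 0.757% ± 0.196 in S34F vehicle and 1.37% ± 0.301 in S34F sudemycin mice at its site, lower in S34F mice in both (adjusted p = 0.0528 and 0.0289).

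Several large differences rested on few reads. The largest of those called under vehicle, named after its values were seen, was at a site of Trim5, a tripartite motif gene, with T before the AG and 140 reads in all. Its shares were 39.5, 9.38, 0, 0 and 0% in WT vehicle mice and 88.2, 100 and 100% in the 3 S34F vehicle mice with reads at its 5′ splice site (adjusted p = 0.0114), and it was not called under sudemycin D6 (adjusted p = 0.673). Ccnl2, a cyclin of splicing kinases, had 59.2, 41.2, 16.7, 55.4 and 62.5% in WT vehicle and 0, 0, 5, 0 and 6.45% in S34F vehicle mice, from 138 and 4 reads (adjusted p = 0.00406). Under sudemycin D6 it had 0, 0, 0, 10.7 and 59.2% in WT and 0, 9.3, 0, 3.85 and 45.5% in S34F mice and was not called (adjusted p = 0.817). Adnp, a homeodomain protein of chromatin complexes, had 0, 0, 0, 0 and 19.2% and 27.6, 27.5, 25.6, 26.7 and 58.8% from 5 and 53 reads at a site with A before the AG (adjusted p = 0.0835), and was not called under sudemycin D6 (0.123). Under sudemycin D6, Nlrp1a, an inflammasome sensor, was lower in S34F mice by 54.7 percentage points (adjusted p = 0.0792) from 43 and 41 reads, and Fastkd5, a mitochondrial RNA-processing protein, by 36.1 (0.0713) from 63 and 21 reads. Under vehicle neither was called (adjusted p = 1 and 0.497). In fits that left out 1 of the 10 mice the calls of Adnp, Nlrp1a and Fastkd5 held in 2, 1 and 3 of 10, and that of Ccnl2 in all 10. Gm15446 had 48.7% ± 15.5 in WT vehicle, 29.1% ± 15.9 in WT sudemycin, 20.6% ± 6.32 in S34F vehicle and 20.8% ± 14.4 in S34F sudemycin mice and was called under vehicle (adjusted p = 0.0997) in 1 of 10 such fits.

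**Figure D4:**
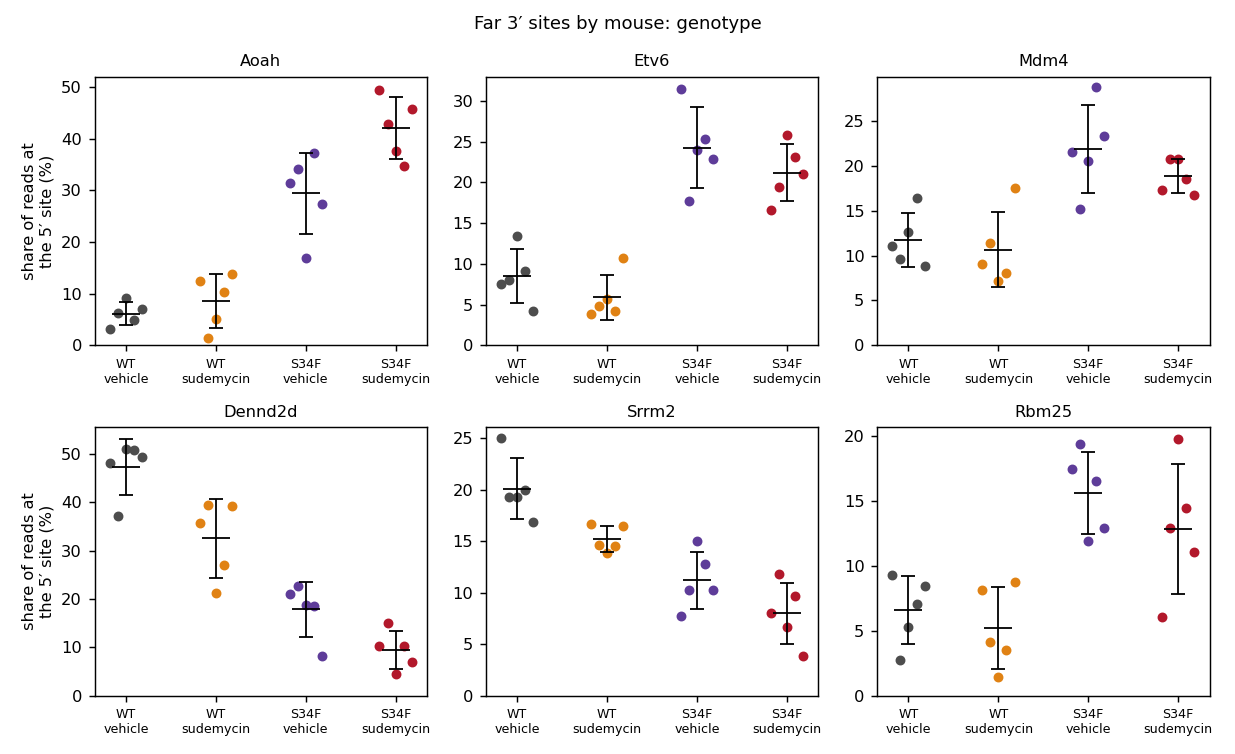
Share of reads (vertical axis, percent) of unannotated far 3′ splice sites that differed between the genotypes, in each mouse (points) by group (horizontal axis), with the mean ± SD of 5 mice. Each panel is 1 site, named by its gene, with the upstream site for Rbm25. The means of S34F mice are above those of WT mice of the same treatment for Aoah, Etv6, Mdm4 and Rbm25 and below them for Dennd2d and Srrm2.

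To ask what sudemycin D6 did to these sites, drug and vehicle were compared within each genotype. In WT mice 47 sites were called, 26 higher and 21 lower with the drug (1.2% of sites against 1.24% of all junctions, 0.622% higher and 0.617% lower). In S34F mice 52 were called, 22 higher and 30 lower (1.33% against 1.51%, 0.766% higher and 0.741% lower). The median sizes of the called differences were 6.56 and 5.96 percentage points, and drug and vehicle mice did not overlap in 43 of 47 and 44 of 52. A call itself favours groups that do not overlap. Of all 3923 far sites tested, called or not, 106 and 131 did not overlap, beside 2.65% and 3.17% of all junctions tested. By limma 15 and 8 were called (0.223% and 0.117% of all junctions). With an estimated dispersion edgeR called 0 in WT mice, where 301 had an unadjusted p under 0.05, and 4 in S34F mice (0.0842% of all junctions), so that of the sites described below only those of Nin and Dnmt1 kept a drug call, in S34F mice. With T before the AG the calls in WT mice were 7 higher and 7 lower, with A 2 and 0, and with C 17 and 12, where the other junctions with an annotated 5′ splice site gave 35 and 49, 5 and 14, and 86 and 85. In S34F mice they were 5 and 9 with T, 2 and 1 with A, and 15 and 20 with C, against 46 and 61, 13 and 16, and 101 and 103. Whether these splits differ from those between genotypes was not tested. The drug responses of the 2 genotypes come from separate mice. Of the 47 sites called in WT mice, 44 moved in the same direction in S34F mice, against 60.7% of all tested far sites and 90.5% of all junctions called in WT mice. In both genotypes 17 were called (36.2% of the 47, against 35% of all junctions called in WT mice), 9 higher and 8 lower.

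Nin, the centrosomal protein ninein, had a far site that rose in both genotypes. At an intronic site with T before the AG (chr12:71116769-71118559), which opens the 58-nt exon with a stop codon shown above, the shares of reads were 1.65, 2.47, 2.08, 1.08 and 1.68% in WT vehicle and 8.32, 8.72, 12.9, 13.4 and 11% in WT sudemycin mice. With S34F the values were 0.478, 0.723, 1.65, 1.36 and 1.08% under vehicle and 7.64, 10.01, 7.23, 4.51 and 7.2% under sudemycin D6. All drug-treated mice of either genotype were above all vehicle mice. The share was higher by 9.07 percentage points in WT (log2 odds ratio 2.73 ± 0.33 (SE), adjusted p = 3.45e-05) and 6.26 in S34F mice (log2 odds ratio 2.86 ± 0.31 (SE), adjusted p = 7.55e-05), called by limma too (adjusted p = 0.0189 and 0.0346), with adjusted p = 0.108 and 0.0646 with an estimated dispersion. Gmeb2, a transcription factor of glucocorticoid-responsive promoters, had an intronic site with T before the AG (chr2:181021799-181022588) at 0, 0, 3.23, 0 and 0% in WT vehicle and 16.4, 23.9, 17.2, 26.3 and 27.1% in WT sudemycin mice. In S34F mice they were 0, 4.96, 1.09, 0 and 0% with vehicle and 13.3, 18.8, 14.5, 8.7 and 25% with sudemycin D6. It was at or below 4.96% in vehicle mice and at or above 8.7% in drug-treated mice of both genotypes (adjusted p = 0.00334 and 0.0194), and expression of the gene was higher with the drug (log2 fold change 0.41 ± 0.09, adjusted p = 0.0385 in WT mice). Prkcd, protein kinase C delta, had one with T before the AG (chr14:31413396-31414354) at 2.59, 2.41, 4.03, 1.99 and 3.35% in WT vehicle and 12.1, 9.54, 7.22, 17.5 and 21.5% in WT sudemycin mice. S34F mice had 1.16, 1.7, 1.68, 0 and 1.06% with vehicle and 5.44, 6.92, 4.25, 3.43 and 4.3% with sudemycin D6. The drug raised it in both genotypes (by 10.7 percentage points, adjusted p = 0.00439, and by 3.75, 0.00671), and under the drug S34F mice were below WT mice (adjusted p = 0.0476).

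Sf3b1, which encodes the protein that sudemycin D6 binds, had a far site with C before the AG that fell with the drug. The intron ended at the start of the 54-nt exon shown above (chr1:55073027-55073219), with shares of 6.37, 3.39, 7.77, 6.0 and 4.69% in WT vehicle and 1.21, 1.78, 1.57, 1.42 and 1.37% in WT sudemycin mice. Those of S34F mice were 2.78, 2.62, 2.79, 2.82 and 2.13% with vehicle and 1.29, 1.15, 1.46, 1.53 and 1.13% with the drug. The WT sudemycin mice were all below the WT vehicle mice, and S34F mice of either treatment were also below WT vehicle mice. The differences were 4.17 percentage points lower with the drug in WT (log2 odds ratio -1.93 ± 0.32 (SE), adjusted p = 0.00194), 1.32 lower in S34F (log2 odds ratio -1.03 ± 0.22 (SE), adjusted p = 0.0257) and 3.01 lower in S34F than in WT vehicle mice (adjusted p = 0.0184). Expression of the gene was 685 ± 35.1 CPM in WT vehicle and 719.8 ± 54.9 in WT sudemycin mice, not called (adjusted p = 0.821). Sf3b3, its partner in the U2 snRNP, had a far site at 8.48% ± 1.07 in WT vehicle, 4.06% ± 3.03 in WT sudemycin, 7.25% ± 2.28 in S34F vehicle and 3.87% ± 0.943 in S34F sudemycin mice, not called for the drug in either genotype (adjusted p = 0.349 in WT and 0.196 in S34F mice).

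Rsrc2, a protein with arginine and serine repeats, had one in an untranslated exon part (chr5:124185906-124186567) that was called in all 5 comparisons. Its shares of reads were 32.5, 20, 26.5, 34 and 21% in WT vehicle and 11.5, 8.1, 19.5, 10 and 14.5% in WT sudemycin mice. The S34F vehicle and S34F sudemycin mice had 13.2, 15.7, 13.3, 14.1 and 16.7% and 6.87, 5.82, 8.38, 6.78 and 5.1%. Drug-treated mice were below vehicle mice of their genotype, by 14.1 percentage points in WT (log2 odds ratio -1.27 ± 0.29 (SE), adjusted p = 0.0344) and 8.0 in S34F mice (log2 odds ratio -1.27 ± 0.20 (SE), adjusted p = 0.00274), and S34F vehicle mice were below WT vehicle mice by 12.2 (adjusted p = 0.0127). Prickle3, a planar polarity protein, had a site in its untranslated exon part (chrX:7236846-7240296) at 37.8, 33.7, 49.1, 43.2 and 43.3% in WT vehicle and 21.9, 14.2, 13.3, 23.4 and 29.1% in WT sudemycin mice. With S34F the values were 44.8, 37.6, 36.2, 27 and 33.2% under vehicle and 21.5, 14.4, 16.8, 12.5 and 16.9% under sudemycin D6. It fell by 21 percentage points in WT (adjusted p = 0.0266) and 19.3 in S34F mice (0.0105), with no overlap of drug and vehicle. Hnrnpa2b1 had 1 site in a coding exon (chr6:51417426-51419669) that rose, at 11.2% ± 0.664 in WT vehicle, 14.4% ± 1.12 in WT sudemycin, 10.01% ± 0.82 in S34F vehicle and 14.8% ± 1.36 in S34F sudemycin mice (adjusted p = 0.0548 in WT and 0.00201 in S34F mice), while its site with T before the AG fell in S34F mice (0.0261). Dnmt1, the maintenance DNA methyltransferase, had 0.0993% ± 0.222 in WT vehicle, 2.24% ± 1.21 in WT sudemycin, 0% ± 0 in S34F vehicle and 1.23% ± 0.519 in S34F sudemycin mice, with 4 and 0 reads in the vehicle and 84 and 64 in the drug groups (adjusted p = 0.0766 in WT and 0.0298 in S34F mice).

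Further sites were lower with the drug. Ppcdc, of coenzyme A synthesis, had a far site that took most reads of its 5′ splice site in WT vehicle mice (chr9:57263280-57267969), at 81% ± 3.89 in WT vehicle, 61.3% ± 5.94 in WT sudemycin, 75.9% ± 5.66 in S34F vehicle and 60.9% ± 8.77 in S34F sudemycin mice, and fell by 19.7 percentage points in WT mice (adjusted p = 0.0472). In S34F mice the difference was 15.1 points lower and missed the threshold (0.181). Gcnt1, a glycosyltransferase of mucin-type glycans, had 1 far site reached from 2 5′ splice sites, with means of 70.4% ± 14.6 in WT vehicle, 31.6% ± 32.5 in WT sudemycin, 73.3% ± 13.2 in S34F vehicle and 37.9% ± 10.6 in S34F sudemycin mice at the one and 28.7% ± 6.12 in WT vehicle, 15.7% ± 6.32 in WT sudemycin, 31.3% ± 8.52 in S34F vehicle and 15.2% ± 3.27 in S34F sudemycin mice at the other, both called in S34F mice (adjusted p = 0.0891 and 0.0477) and not in WT mice (0.294 and 0.208). Slfn3, a Schlafen family gene, had 44.4% ± 9.0 in WT vehicle, 41.3% ± 9.19 in WT sudemycin, 46.7% ± 2.83 in S34F vehicle and 28.1% ± 5.91 in S34F sudemycin mice and was called in S34F mice (0.0173). Rbks, ribokinase, had 31.6, 32.3, 27.5, 65.4 and 27.6% in WT vehicle and 2.94, 5.45, 5, 7.02 and 4.55% in WT sudemycin mice, from 71 and 14 reads (adjusted p = 0.0518). In S34F mice it had 0, 16.4, 24, 7.29 and 5.95% with vehicle and 14, 0, 2.08, 11 and 5.33% with the drug and was not called (adjusted p = 0.902). Gm5918 had a site that rose, at 21.9, 1.89, 0, 0 and 0% in WT vehicle and 44.7, 43.1, 26.4, 48.9 and 60.7% in WT sudemycin mice. In S34F mice they were 15.4, 20, 9.09, 0 and 0% with vehicle and 60.7, 37.8, 76.3, 41.2 and 38.5% with sudemycin D6. It had 194 reads in all (adjusted p = 0.0513 in WT and 0.0342 in S34F mice), and the WT call held in 4 of 10 fits that left out 1 mouse.

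Adpgk, an ADP-dependent glucokinase, had a site with A before the AG (chr9:59158156-59158485) with 5030 reads. Its shares were 3.0, 3.32, 3.66, 3.36 and 3.08% in WT vehicle and 3.75, 3.28, 3.41, 3.47 and 2.99% in WT sudemycin mice. S34F mice had 7.32, 7.69, 6.15, 9.33 and 7.85% with vehicle and 4.42, 4.42, 5.04, 4.0 and 5.61% with sudemycin D6. It was higher in S34F than in WT vehicle mice by 4.38 percentage points (log2 odds ratio 1.32 ± 0.16 (SE), adjusted p = 3.55e-05) and lower with the drug in S34F mice by 2.97 (log2 odds ratio -0.77 ± 0.14 (SE), adjusted p = 0.00954), while in WT mice the drug difference was 0.0936 points (adjusted p = 0.981). The interaction, which tests whether the drug differences of the genotypes differ, gave -0.82 ± 0.22 (log2, SE) with an adjusted p of 0.911.

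**Figure D5:**
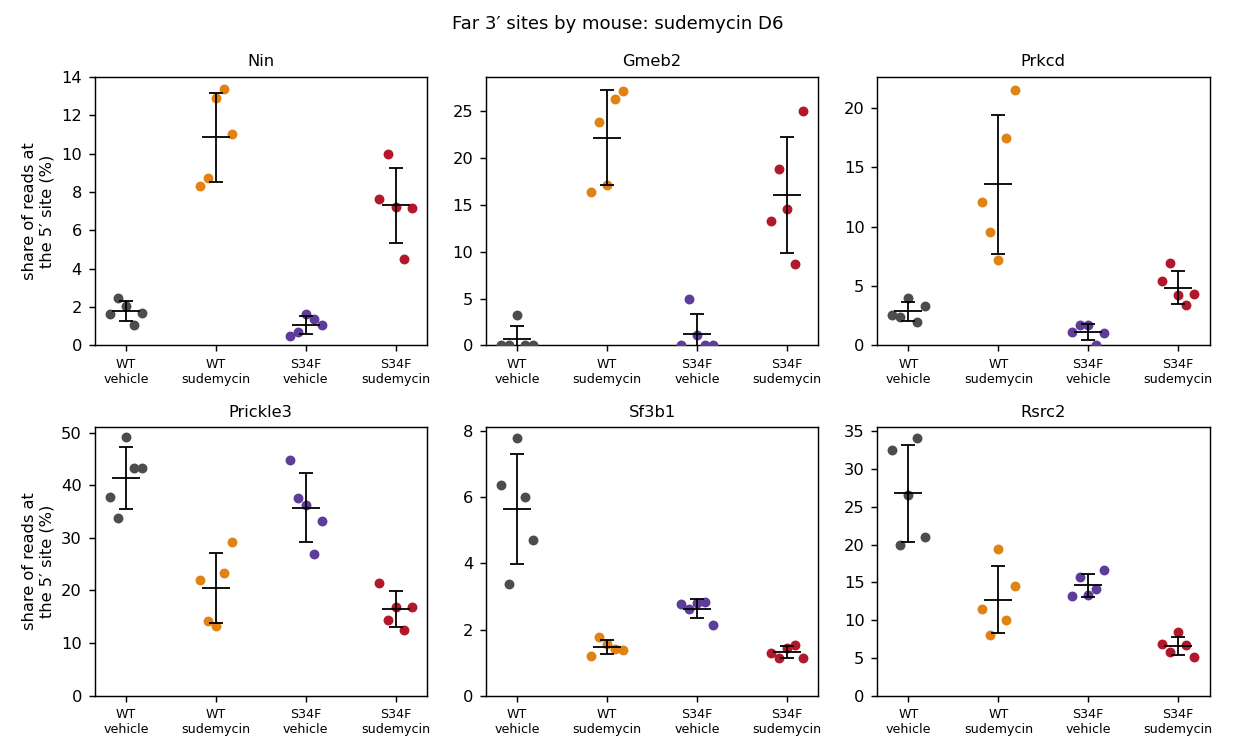
Share of reads (vertical axis, percent) of unannotated far 3′ splice sites that differed between sudemycin D6 and vehicle, in each mouse (points) by group (horizontal axis), with the mean ± SD of 5 mice. Each panel is 1 site, and those of Nin, Gmeb2 and Prkcd are higher, those of Sf3b1, Rsrc2 and Prickle3 lower in the drug groups of both genotypes.

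S34F sudemycin mice were last compared with WT vehicle mice, which share groups with the comparisons above. Of the sites 420 were called, 208 higher and 212 lower (10.7% against 9.27% of all junctions, 4.68% higher and 4.59% lower). By limma 277 were called (5.37% of all junctions) and with an estimated dispersion 159 (3.27%). Smg1, a kinase that starts nonsense-mediated decay, had an intronic site opening the 58-nt exon shown above (chr7:125361292-125386718), with shares of 21.7, 20.1, 19.1, 16 and 18.1% in WT vehicle and 22.6, 21, 25, 26.8 and 31.6% in WT sudemycin mice. Those of S34F mice were 23.1, 33.3, 22.8, 41.4 and 27.8% with vehicle and 39.7, 31.2, 32, 24.2 and 35.9% with the drug. The S34F sudemycin mice were all above the WT vehicle mice, by 13.6 percentage points (log2 odds ratio 1.07 ± 0.26 (SE), adjusted p = 0.018), while each single comparison missed the threshold (adjusted p = 0.121 for genotype under vehicle and 0.519 for the drug in WT mice). Mll5, a chromatin regulator, had 0.414% ± 0.704 in WT vehicle, 1.58% ± 1.3 in WT sudemycin, 1.44% ± 1.16 in S34F vehicle and 3.41% ± 1.08 in S34F sudemycin mice (adjusted p = 0.0271), Srsf7, an SR protein, 17.1% ± 4.09 in WT vehicle, 10.8% ± 3.81 in WT sudemycin, 12.2% ± 2.23 in S34F vehicle and 8.51% ± 2.84 in S34F sudemycin mice (0.0147) and Srsf11 1.95% ± 1.15 in WT vehicle, 3.12% ± 1.02 in WT sudemycin, 3.9% ± 0.982 in S34F vehicle and 4.8% ± 2.17 in S34F sudemycin mice (0.0959). Asxl1 was lower by 6.31 percentage points (0.0858), a call kept in 1 of 10 fits without 1 mouse. Sf3b3 was lower by 4.62 (0.0228), Hnrnpul1 higher by 1.34 (0.0911) and H2-T23, a nonclassical class I molecule, lower by 1.82 (0.0487). Naip1 had 51.1% ± 30.6 in WT vehicle and 7.41% ± 5.06 in S34F sudemycin mice from 95 and 9 reads (0.0923).

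No site was called for the interaction of genotype and sudemycin D6 by edgeR's quasi-likelihood test (smallest adjusted p 0.911) or by limma (smallest 0.679), and the background was 0% of all junctions. At an unadjusted p under 0.05 there were 210 sites by edgeR, of 3923, where 5.05% of all junctions passed. By limma there were 223, and DESeq2 called 4, both without a share of all junctions to set beside them. Calls present in one genotype and absent in the other are therefore not shown to differ between the genotypes. Over the 5 comparisons, 582 of the far sites in 473 genes were called at least once, 357 of them in a single comparison.

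Over gene lists, the SR protein and hnRNP list (60 genes) had 47 far sites in 24 genes, of which 12 were called at least once. Under vehicle 2 rose and 4 fell in S34F mice (median log2 odds ratio -0.06, against 0.07 over all tested far sites). The list of 3′ splice site recognition and SF3 genes (22 genes) had 9 far sites, and 2 were called, those of Sf3b1 and Sf3b3. The core spliceosome list (55 genes) had 25 with 3 called, the nonsense-mediated decay list (18 genes) 12 with 1, and the chromatin list (87 genes) 49 with 3. Recurrent myeloid drivers (45 genes) had 38 with 6 called, p53 and cell death genes (42) 20 with 1, and antigen presentation genes (30) 14 with 1. Of all junctions tested, 13.5% were called at least once. These counts are descriptions.

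A called share stood in a gene with a called change of expression about as often as other far sites did under vehicle. Of the 212 sites called between genotypes, 98 (46.2%) lay in a gene called for expression, against 44.6% of all tested far sites, where 39.5% of all genes tested were called. The 2 shares are given as a description. For the drug, 4 of 47 sites called in WT mice and 6 of 52 called in S34F mice lay in a gene called for expression, where 3.07% and 10.8% of all genes were. Srrm2 expression was lower in S34F vehicle mice (log2 fold change -0.52 ± 0.11, SE, adjusted p = 0.0035) and that of Rbm25 and Rsrc2 higher (0.41 and 0.41), while that of Mdm4 and Ncf4 was not called (-0.03 and -0.23).

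The 6 most read far sites, described here because of their reads, include that of Fn1 above. The site of 9030619P08Rik had 33767 reads (chr15:74942111-75262137) and 87.6% ± 3.05 in WT vehicle, 87.4% ± 2.77 in WT sudemycin, 82.2% ± 2.36 in S34F vehicle and 84.2% ± 6.04 in S34F sudemycin mice, and was lower in S34F than in WT vehicle mice (adjusted p = 0.0476). Reads counted to this gene were few beside those of the junction, at 1.17 CPM in WT vehicle and 2.65 CPM in S34F vehicle mice. The gene that gave the junction reads is therefore uncertain. Ltf, lactotransferrin of neutrophil granules, had 23023 reads at a site 52 bp inside a coding exon, but only 1.56% ± 0.136 in WT vehicle, 1.68% ± 0.176 in WT sudemycin, 2.19% ± 0.319 in S34F vehicle and 1.82% ± 0.105 in S34F sudemycin mice of the reads there, and was not called because its difference between genotypes under vehicle, with an adjusted p of 0.0117, was under 1 percentage point. Gnai2, a G protein subunit of leukocyte chemotaxis, had 19.1% ± 2.33 in WT vehicle, 18.6% ± 2.02 in WT sudemycin, 18.5% ± 1.7 in S34F vehicle and 21.7% ± 1.54 in S34F sudemycin mice, Fam49b 93.2% ± 1.68 in WT vehicle, 89.4% ± 2.32 in WT sudemycin, 92.7% ± 1.99 in S34F vehicle and 89.3% ± 1.86 in S34F sudemycin mice and the pseudogene Pisd-ps2 98.3% ± 0.635 in WT vehicle, 98.4% ± 0.645 in WT sudemycin, 98.6% ± 0.528 in S34F vehicle and 99% ± 0.402 in S34F sudemycin mice, none of them called between genotypes or for the drug within a genotype. Gene counts of Pisd-ps2 were also low for a site with so many reads, at 14.2 CPM in WT vehicle and 11 CPM in S34F vehicle mice. The highest shares were at 5′ splice sites with hardly any other junction, in the immunoglobulin segments Igkv14-100, Igkv19-93 and Iglv2 and in Epsti1 and Hnrnph1, with 94.7 to 100% in every mouse, and they were described only.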

How the data were processed

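Stranded, ribosomal RNA-depleted RNA-seq (2 × 126 bp) was made from bulk bone marrow of 20 mice, 5 per group. The authors aligned the reads to mm9 with TopHat2 2.0.8 and deposited raw counts of reads per splice junction and per gene for each mouse, and SAMtools is also named in the submitters' processing notes. The program that counted junctions is not given in the sources used here. Replicates were not pooled.

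From the counts, the share of reads of a junction at its 5′ splice site was computed per mouse. The test was edgeR's quasi-likelihood test (4.0.16, R 4.3.3) on the pair of counts of each junction and of the other reads at its 5′ splice site, with 1 coefficient per mouse, negative binomial dispersion set to 0 and the quasi-likelihood dispersion taking up the spread between mice. It was fitted over all 36818 junctions with at least 100 reads and at least 100 other reads at the 5′ splice site (3923 of the 3990 far sites), on the 10 mice of each comparison (all 20 for the interaction), with Benjamini-Hochberg adjustment over the whole table. A call needed an adjusted p under 10% and a difference of mean shares over 1 percentage point. Gene counts were tested with edgeR in the same comparisons. Alternatives were limma 3.58.1 on log2((reads + 0.5)/(other reads + 0.5)), DESeq2 1.42.0, an estimated dispersion, other limits and leaving out each mouse in turn. The procedures were tested on simulated data, where the junction test with dispersion 0 gave a share of false calls above the nominal 10%. Depth limits precision for sites with few reads per mouse, and intervals and floors cover counting error only.

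Sequences, places and reading frames came from the mm9 genome (NCBI build 37) with the GENCODE M1 annotation. Named sites were the 6 with most reads, the 6 with the highest mean share, up to 5 called and non-overlapping ones with the largest difference per comparison, called sites of 8 gene lists, and some chosen after their values were seen (called in at least 4 comparisons, or in both genotype or both drug comparisons by edgeR and limma). The members and lists were chosen with earlier results of these data known. Mouse values are given in the order of the mouse numbers in the labels (WT vehicle 1, 2, 3, 4 and 5; WT sudemycin 6, 8, 9, 10 and 12; S34F vehicle 1, 3, 5, 7 and 11; S34F sudemycin 2, 6, 9, 10 and 12), which do not say what a repeated number means. No pair of mice of a group had identical or near-identical counts.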

Additional observations from a re-analysis of the deposited data

Results flagged for a closer look

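In groups of 5 mice, the share of reads of a named site was looked at for a single mouse far from the others (a gap to the nearest of the others above Dixon's 95% critical value). This picked out 37 of 281 groups. The critical value picks about 1 in 20 by chance only for normally distributed values. In several of these groups the other mice were tied at 0 or 100%, where 1 read can set a mouse apart. The count is therefore not read as an excess. With 200 or more reads at the 5′ splice site, a mouse stood above its group for Trim30b in WT vehicle mouse 3 (18.2%, others 11.9 to 12.9%), Hnrnpc in S34F vehicle mouse 1 (60.1%, others 51.3 to 53.6%), Hnrnpa2b1 in S34F sudemycin mouse 12 (4.15%, others 2.42 to 2.77%) and Hnrnpul1 in WT vehicle mouse 5 (2.21%, others 0.57 to 0.983%). Others above their group were Hnrnpl in WT sudemycin mouse 8 (3.75%, others 0.186 to 1.12%), H2-T23 in WT vehicle mouse 4 (4.64%, others 2.37 to 2.77%), Mll5 in WT vehicle mouse 3 (1.63%, others 0 to 0.444%) and Dnmt1 in WT vehicle mouse 5 (0.496%, others at 0%). High values were also found for Aoah in WT vehicle mouse 1 (7.46%, others 0.81 to 2.19%), Itgb2l in S34F vehicle mouse 7 (5.43%, others 3.35 to 3.89%), Mnda in S34F vehicle mouse 3 (1.65%, others at 0%) and Trim30b in WT vehicle mouse 3 (18.2%, others 12.1 to 13.5%). With as many reads, a mouse stood below its group for Ltf in WT vehicle mouse 1 (1.33%, others 1.59 to 1.69%), Igkv19-93 in S34F vehicle mouse 3 (99%, others at 100%), Dennd2d in S34F vehicle mouse 11 (8.11%, others 18.6 to 22.6%) and Gcnt1 in WT sudemycin mouse 8 (4.44%, others 17.5 to 19.3%). Others below their group were Sf3b1 in S34F vehicle mouse 11 (2.13%, others 2.62 to 2.82%) and Ncf4 in WT vehicle mouse 2 (0.839%, others 1.37 to 1.54%). These values enter the means given above.

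With fewer than 200 reads at the 5′ splice site in that mouse, a single mouse was high for Ccnl2 in WT sudemycin mouse 12 (59.2%, others 0 to 10.7%), Ccnl2 in S34F sudemycin mouse 12 (45.5%, others 0 to 9.3%), Adnp in WT vehicle mouse 5 (19.2%, others at 0%) and Adnp in S34F vehicle mouse 11 (58.8%, others 25.6 to 27.6%). Others above their group were Gm5918 in WT vehicle mouse 1 (21.9%, others 0 to 1.89%), Rbks in WT vehicle mouse 4 (65.4%, others 27.5 to 32.3%), Gmeb2 in WT vehicle mouse 3 (3.23%, others at 0%) and Gmeb2 in S34F vehicle mouse 3 (4.96%, others 0 to 1.09%). High values were also found for Nlrp1a in WT vehicle mouse 4 (60%, others 0 to 15.8%), Nlrp1a in S34F vehicle mouse 5 (35.1%, others 4.69 to 12.8%), 1110005A03Rik in WT vehicle mouse 1 (18.2%, others 5.67 to 8.7%) and Etv6 in WT sudemycin mouse 12 (10.8%, others 3.83 to 5.69%). Another high value was that of Alpk1 in S34F sudemycin mouse 12 (0.758%, others at 0%). With so few reads a single mouse was low for Iglv2 in S34F vehicle mouse 5 (96.9%, others at 100%), Hnrnph1 in S34F vehicle mouse 11 (97.4%, others at 100%), Hnrnph1 in S34F sudemycin mouse 2 (94.7%, others at 100%) and Dennd2d in WT vehicle mouse 2 (37.2%, others 48 to 51%). Others below their group were Gcnt1 in WT vehicle mouse 2 (18%, others 29.3 to 32.7%) and Trim30b in S34F sudemycin mouse 12 (40.2%, others 43.1 to 44%). S34F sudemycin mouse 12 and WT sudemycin mouse 12 are different mice that share a number. The 2 high Trim30b values come from near-identical exon starts.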

How the results depend on the processing

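Counts of called sites are given in the order genotype under vehicle, drug in WT, drug in S34F, genotype under sudemycin D6, and S34F sudemycin against WT vehicle, where the reported counts were 212, 47, 52, 167 and 420. They became 108, 15, 8, 88 and 277 with limma, 39, 0, 4, 42 and 159 with an estimated dispersion, and 412, 100, 110, 334 and 510 with DESeq2, which called 4 for the interaction. The 0 with an estimated dispersion stood beside 301 at an unadjusted p under 0.05. An adjusted p under 5% gave 110, 30, 38, 91 and 258, a limit of 5 percentage points 100, 27, 29, 78 and 196, and 1 model of all mice 278, 100, 39, 175 and 380. The causes of these shifts were not tested. The shares of all junctions called by limma and with an estimated dispersion are given above. For the other settings of this section they are not given, so those counts of called sites describe the settings and not far sites in particular. Leaving out 1 mouse gave 119 to 188, 32 to 45, 37 to 54, 92 to 172 and 281 to 414, lowest for genotype under vehicle without S34F vehicle mouse 11 (119) and 7 (133), and under sudemycin D6 without S34F sudemycin mouse 9 (92), 6 (99), 12 (99) or 10 (104). Genes with a far site that were called for expression ranged over 25 to 125 for the drug in WT mice (70 with all mice, 118 by DESeq2) and 129 to 265 in S34F mice (238), the first at 125 without WT vehicle mouse 2 and at 25, 34 and 31 without WT vehicle mouse 1, 3 or 5 (38 and 35 without WT sudemycin mouse 8 or 12), the second at 148 without S34F vehicle mouse 1 and 129 without S34F sudemycin mouse 2. With 200 in place of 100 reads in the rule the summed share of far sites was 1.77, 1.67, 1.42 and 1.35% in WT vehicle, WT sudemycin, S34F vehicle and S34F sudemycin mice, and with 200 bp in place of 50 it was 1.65, 1.34 and 1.26% in WT vehicle, S34F vehicle and S34F sudemycin mice, in the same order of groups. No call of a named site changed direction. Of the named calls, 58 of 164 were lost with limma, 98 of 164 with an estimated dispersion, 5 of 163 with annotated junctions alone as denominator, and 291 of 1640 call-by-mouse fits without 1 mouse.

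Same-numbered mice of the 2 genotypes did not deviate together (correlations of their deviations -0.09 to 0.03, none highest with its own number). Few mice share a number, so this check cannot exclude a link between them, and the labels do not say what the numbers mean. With the replicate block, over the mice with shared numbers, 174 sites were called under vehicle and 201 under sudemycin D6. The same mice without the block, an alternative chosen after seeing the data, gave 44 and 93. No paired analysis was possible for the drug comparisons because their groups share fewer than 2 numbers.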
